A study of Mus musculus with 6 samples.

Results

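Chaperone and stress genes of the endoplasmic reticulum (ER) were examined in mouse dorsal skin to ask whether tight skin (TSK) mice show a secretory stress response. The 10 genes were taken by name from a table of 55291 genes. They are the lumenal chaperones Hspa5, Hsp90b1 and Calr, the disulfide isomerase Pdia4, the cochaperones Dnajb9 and Sdf2l1, the degradation factor Herpud1 and the transcription factors Xbp1, Atf4 and Ddit3. Bulk RNA was sequenced from shaved dorsal skin of 3 TSK mice and 3 wild-type (WT) littermates, with 1 library per mouse. All mice were C57BL/6, and the labels give an age of 6 to 8 weeks where the study's methods give 8 weeks. TSK mice carry a duplication inside Fbn1, which encodes fibrillin 1, a large secreted glycoprotein of microfibrils. The mutant allele is present in every cell of the mouse and is kept in heterozygotes, because homozygous embryos die. Sex is female in the labels but male in the study's methods. The Y-linked gene Ddx3y was read at 56.7 to 72.8 CPM (deposited counts scaled to the library total) in all 6 libraries.

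Secreted and membrane proteins fold in the ER, where chaperones and oxidoreductases hold them until they are mature. When unfolded protein builds up, the sensors IRE1, PERK and ATF6 start the unfolded protein response, which raises chaperones, degradation factors and, if stress lasts, the death-linked factor CHOP. Fibroblasts of skin export much collagen and other matrix and depend on this machinery, and the transcripts of Hspa5, Dnajb9, Herpud1, Sdf2l1 and Ddit3 are widely used as readouts of the response.

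Library totals ran from 17561453 to 19219814 estimated counts and overlapped between the groups. Fbn1 was at 262 to 289 CPM in WT and 1538 to 2284 CPM in TSK. Skin markers were present in every library, including all 12 keratinocyte and all 11 fibroblast markers at a mean above 1 CPM. Marker levels of several cell types differed between the groups. The summed level of 16 adult skeletal muscle markers was 171069 to 248757 CPM in WT and 147333 to 169306 CPM in TSK. The summed level of the 11 fibroblast markers was 6424 to 9745 CPM in WT and 20606 to 47624 CPM in TSK, where TSK 3 was highest. Most of that sum came from Col1a1, Col1a2 and Col3a1. Over the 11 fibroblast markers the median log2 fold change was 0.92, and edgeR called 2 higher and 0 lower. Over all genes tested edgeR called 2.71% higher and 0.681% lower, the shares to set beside the calls in each list below. Summed markers of macrophages (2.41-fold in the means), mast cells (2.68-fold) and endothelium (2.07-fold) were also higher in every TSK library, as were 29.1% of all genes on deposited CPM. Of these lists edgeR called 0 of 11 macrophage, 0 of 6 mast cell and 2 of 9 endothelial genes, and TSK 3 was highest for macrophages, at 1286 CPM. The sebaceous sum was 477, 177 and 295 CPM in WT and 894, 6453 and 632 CPM in TSK, where TSK 2 stood far above the rest through Scd1, and edgeR called 0 of its 9 genes. Of 10 adipocyte markers 9 had a positive log2 fold change and edgeR called 3 higher, with a median of 2.64, although their sum, mostly Car3, overlapped. TSK 2 stood apart here too, with Adipoq at 247 CPM beside 47.8 and 33.3 CPM in TSK 1 and TSK 3 and 8.36 to 12.3 CPM in WT. Hair follicle markers summed to 31.6 to 67.3 CPM in WT and 73.7 to 81.4 CPM in TSK, and edgeR called 4 of 8 tested higher. Ribosomal RNA from CT010467.1 was lower in every TSK library, at a mean of 4.30% of its reads beside 6.92% for WT. The part of these differences in the results on the ER genes was not tested. WT 1 stood apart from the other WT libraries, with muscle markers at 17.1% of its counts against 24.9% and 23.6%. In bulk tissue, fewer cells of a type and less RNA per cell cannot be told apart.

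No member of the group passed an adjusted p of 0.05 between TSK and WT skin. All 10 genes passed the filter on low counts, and 6 had a positive and 4 a negative log2 fold change (TSK minus WT, edgeR with TMM scaling, a scaling set by the bulk of genes). Their median log2 fold change was 0.04, beside -0.03 over all 19971 genes tested. Across all genes tested, 2.71% were called higher in TSK and 0.681% lower at the same threshold, so 0 of 10 was close to what the whole table gave. At an unadjusted p below 0.05 the members counted 1 higher (Pdia4) and 0 lower, beside 12.1% and 7.9% of all genes. DESeq2 called 1 member higher (Pdia4) and 0 lower, beside 5.5% and 1.98% of the genes to which it gave an adjusted p. With the study's thresholds, an adjusted p below 0.01 and a fold above 2.5, both tools called 0 members, beside 0.29% of all genes with edgeR and 1.82% with DESeq2. At a 95% confidence level the intervals of the other 9 genes included no change. For Hspa5, Herpud1 and Atf4 the upper ends of the intervals were 19.5%, 14.6% and 20.1% above WT, so with TMM scaling larger rises lay outside them. For Sdf2l1, the least abundant member by CPM, the upper end was 99.95% above WT. These bounds hold for TMM scaling only. With scaling by library size only, the log2 fold changes of Hspa5, Herpud1 and Atf4 were 0.23, 0.17 and 0.20, and no intervals were computed.

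In mm10 coordinates, the members lie on 8 chromosomes and each deposited start was that of the annotated gene. Hspa5 spans chr2:34771970-34777547 on the plus strand, Hsp90b1 chr10:86690209-86705509 on the minus strand and Calr chr8:84841850-84846934 on the minus strand. Pdia4 spans chr6:47796141-47813430, Dnajb9 chr12:44205559-44210326 and Sdf2l1 chr16:17130138-17132383, all on the minus strand. Herpud1 spans chr8:94386438-94395377, Xbp1 chr11:5520659-5525893, Atf4 chr15:80255184-80257541 and Ddit3 chr10:127290774-127296288, all on the plus strand. Reads were counted over whole genes.

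Hspa5 encodes BiP, the ER form of heat shock protein 70, which holds the stress sensors inactive and is released from them when clients build up. It was at 162, 150.2 and 174 CPM in WT 1 to 3 and at 175, 196 and 199 CPM in TSK 1 to 3. Every TSK library was above every WT library on this scale, by 1.17-fold in the means. After TMM scaling the WT libraries read 159, 183 and 196 and the TSK libraries 165, 176 and 177. The TSK values then lay inside the range of WT, and edgeR gave a log2 fold change of -0.05 (SE 0.14, adjusted p = 0.870).

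Hsp90b1 encodes GRP94, the ER form of heat shock protein 90, which folds integrins and other selected clients. It was at 167, 148 and 178 CPM in WT and 192, 220.2 and 236 CPM in TSK. With TMM scaling the groups overlapped, at 163, 179.6 and 201 against 181, 198 and 209.9, and edgeR gave 0.11 on the log2 scale (SE 0.14, adjusted p = 0.714). Hsp90b1 shares a stretch of 273 bases with the pseudogene 1810014B01Rik on the opposite strand, which was read at 5.57 CPM. Calr encodes calreticulin, the soluble lectin that retains glycoproteins until they fold. It was at 183, 151 and 173 CPM in WT and 187, 214 and 224 CPM in TSK. With TMM scaling it was at 186 ± 8.56 in WT and 189 ± 11.3 in TSK (SD, n = 3), a log2 difference of 0.02 (SE 0.13, adjusted p = 0.945). The 3 lumenal chaperones were thus separated between the groups per library total and overlapped once the bulk of genes was aligned.

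Pdia4 encodes ERp72, a disulfide isomerase with several thioredoxin-like domains. It differed most in proportion to its error. It was at 34.7, 27.3 and 34.1 CPM in WT and 49.2, 53.4 and 53.6 CPM in TSK. With TMM scaling it was at 33.9, 33.2 and 38.5 in WT and at 46.3, 47.97 and 47.6 in TSK, so that every TSK library stayed above every WT library. The log2 fold change was 0.43 (SE 0.11), which is 1.34-fold with a 95% interval of 1.13 to 1.61-fold. Its edgeR adjusted p of 0.0789 missed the threshold, while DESeq2 gave an adjusted p of 0.0420, and the range over all alternatives was 0.0168 to 0.224.

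The cochaperones varied most among the TSK libraries. Dnajb9 encodes ERdj4, a partner of BiP that restrains IRE1. It was at 19.1, 19.2 and 20.7 CPM in WT and 20.7, 25.9 and 15.001 CPM in TSK, where TSK 2 was the highest and TSK 3 the lowest of all 6 libraries. On the log2 scale the difference was -0.22 (SE 0.21, edgeR adjusted p = 0.607). It was -0.41 without TSK 2 and -0.023 without TSK 3. Dnajb9 shares a stretch of 156 bases at 98.1% identity with Gm6568. Sdf2l1, a subunit of the complexes that BiP forms with its cofactors, was at 4.07, 2.63 and 3.52 CPM in WT and 3.98, 4.13 and 7.66 CPM in TSK. Its log2 fold change of 0.36 (SE 0.28, adjusted p = 0.528) rested on TSK 3 and was 0.0038 without that library. TSK 3 was thus at the same time the lowest library for Dnajb9 and the highest for Sdf2l1.

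Herpud1 encodes HERP, a membrane protein of the complex that returns misfolded proteins to the cytosol for degradation, and its transcript responds strongly to ER stress. It was at 69.1, 75.0 and 74.6 CPM in WT and 80.4, 85.0 and 79.8 CPM in TSK. With TMM scaling it read 67.6, 91.3 and 84.3 in WT and 75.8, 76.4 and 70.9 in TSK. All TSK values then lay between WT 1 and WT 3, and the difference was -0.12 on the log2 scale (SE 0.14, edgeR adjusted p = 0.678).

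None of the transcription factors passed the threshold, and Xbp1 had the largest fold change of them. Xbp1 carries the IRE1 branch after an unconventional splice of its mRNA, and the gene-level counts hold the unspliced and spliced forms together. It was at 50.2, 45.2 and 52.2 CPM in WT and 63.5, 72.5 and 69.2 CPM in TSK. With TMM scaling it was still higher in each TSK library (59.9 to 65.1) than in any WT library (49.0 to 58.95). Its log2 fold change of 0.19 (SE 0.12) did not pass (edgeR adjusted p = 0.411), and the range over all alternatives was 0.0505 to 0.629. Atf4, which is controlled largely at translation and drives amino acid supply and antioxidant genes, was at 62.6, 66.5 and 70.87 CPM in WT and 82.9, 76.5 and 70.87 CPM in TSK. WT 3 and TSK 3 were nearly equal, and the difference was -0.08 on the log2 scale (SE 0.15, adjusted p = 0.812). Ddit3 encodes CHOP, which is nearly silent in unstressed cells. It was low in every library, at 6.38, 6.20 and 5.93 CPM in WT and 7.003, 8.30 and 8.06 CPM in TSK, a log2 difference of 0.05 (SE 0.16, adjusted p = 0.890). Ddit3 overlaps Mars on the opposite strand by 68 bases.

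**Figure D1:**
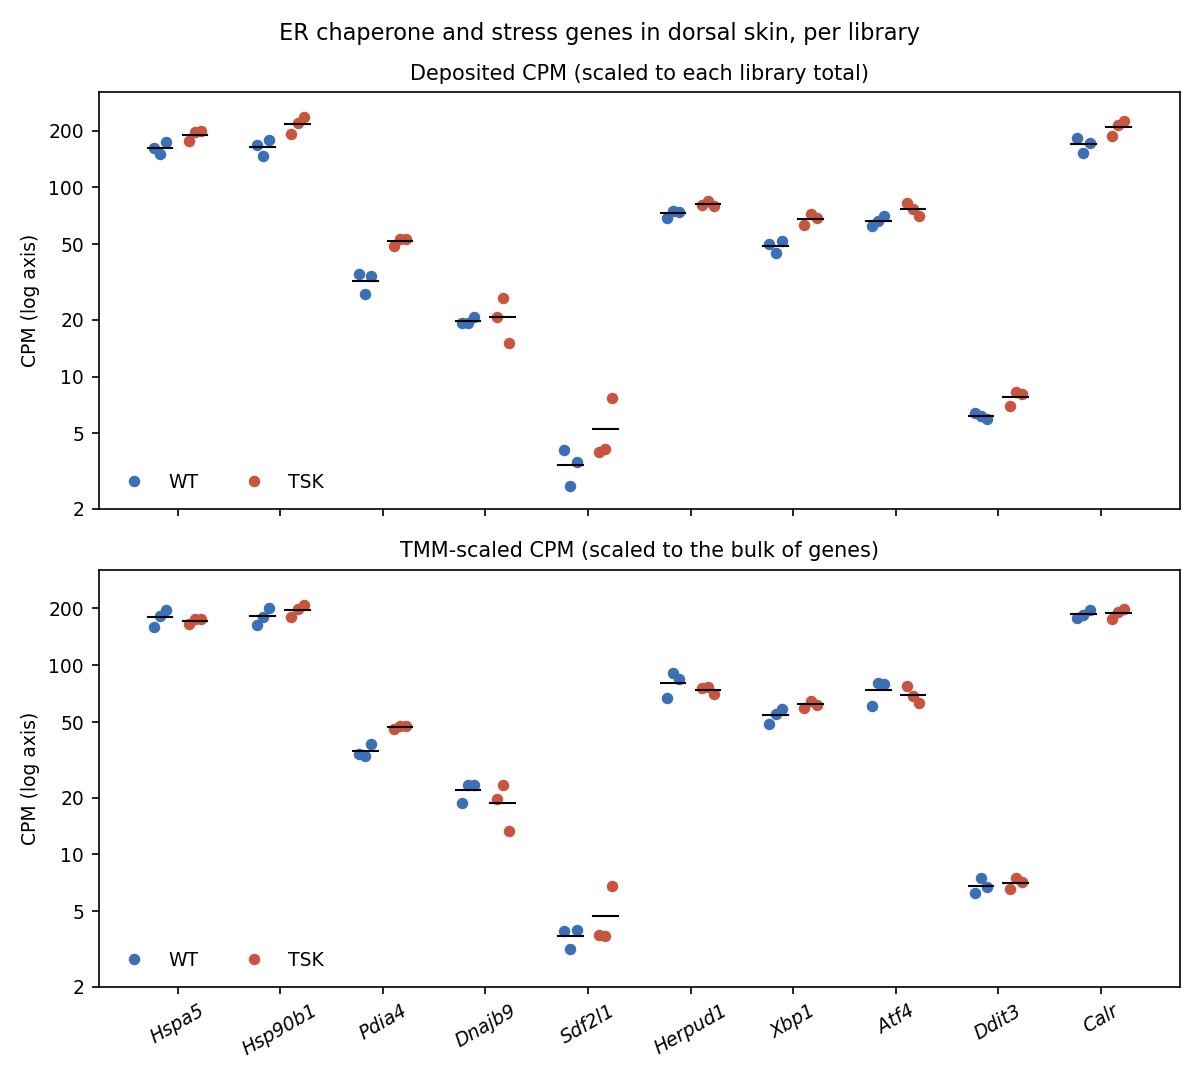
Level of each gene in each library, in deposited CPM (top) and TMM-scaled CPM (bottom), on log axes. Points are libraries (WT blue, TSK red) and black bars are group means. On deposited CPM 8 of 10 genes had every TSK library above every WT library, and on TMM-scaled CPM this held for 2, Pdia4 and Xbp1.

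How the libraries were scaled decided the sign of several differences. On deposited CPM, 8 of the 10 genes were higher in every TSK library than in any WT library, the exceptions being Dnajb9 and Sdf2l1. For Atf4 this rested on 70.8716 CPM in TSK 3 against 70.868 CPM in WT 3, which is nearly a tie. Of all genes tested, 29.1% were higher in every TSK library, while 0 members and 2.58% of all genes were lower in every TSK library. With TMM scaling 2 of 10 were higher throughout and 0 lower, beside 14.1% and 10.6% of all genes. With library size alone the 10 log2 fold changes were all positive, with a median of 0.32, while the median of all genes moved from -0.03 to 0.25. Relative to that median the 10 genes stood 0.065 higher with TMM and 0.071 higher with library size, which is nearly the same. With TMM and 1 library left out, this distance ran from -0.00013 (without WT 1) to 0.10 (without TSK 1). Hspa5, Dnajb9, Herpud1 and Atf4 were negative with TMM and positive with library size (0.23, 0.065, 0.17 and 0.20). Pdia4 passed with library size (0.70, edgeR adjusted p = 0.0192), where 8.44% of all genes were called higher and 0.466% lower. When muscle markers and ribosomal RNA were removed before the scaling by library size, the median of all genes was 0.086 and that of the 10 genes 0.15. Pdia4 was again the member that passed (adjusted p = 0.0409), where 4.57% of all genes were called higher.

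**Figure D2:**
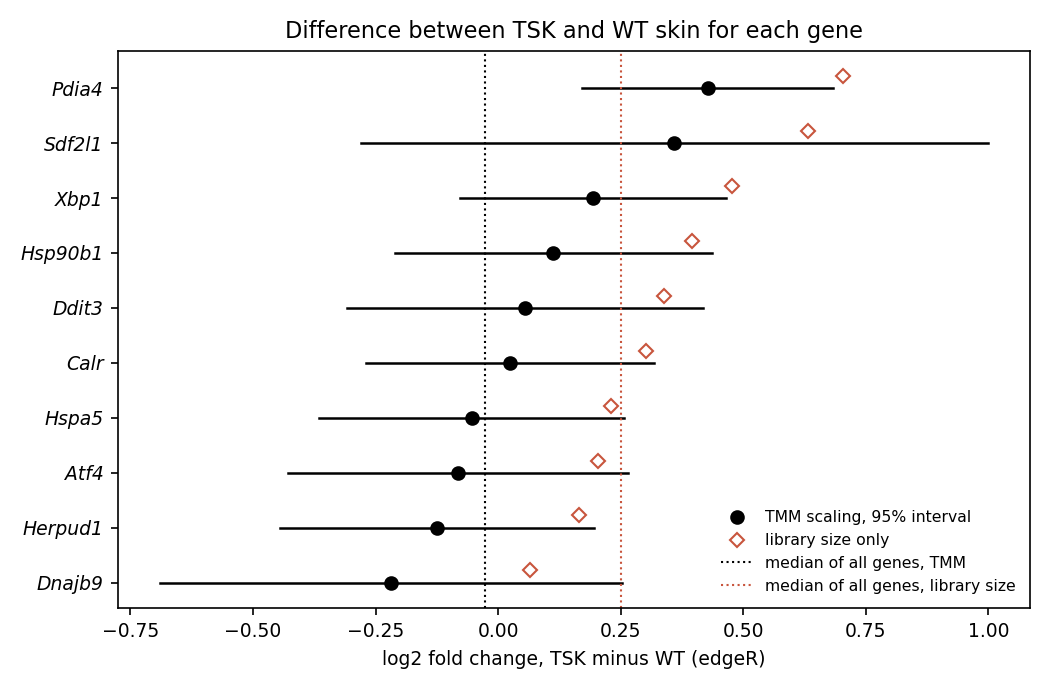
Log2 fold change (TSK minus WT, edgeR) of each gene with TMM scaling (black points, bars are 95% intervals) and with library size only (red diamonds). Dotted lines are the medians of all genes tested, -0.03 with TMM and 0.25 with library size. The interval of Pdia4 alone lies above 0, and the 10 diamonds are all to the right of 0.

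Ratios within a library do not depend on scaling between libraries, and they were used to compare the members with Hspa5. No test was made of them because they were chosen with the values known. Pdia4 per Hspa5 was 0.214, 0.181 and 0.196 in WT and 0.281, 0.272 and 0.269 in TSK, or 1.39-fold higher in the mean. Xbp1 per Hspa5 was 0.309, 0.301 and 0.300 in WT and 0.363, 0.3697 and 0.347 in TSK. Hsp90b1 per Hspa5 went from 1.01 ± 0.0261 in WT to 1.13 ± 0.0479 in TSK (SD, n = 3). In these 3 of 9 ratios to Hspa5 no WT library reached a TSK library, and 0 of 9 were lower throughout. Of all other genes tested, 13.3% were higher and 7.73% lower throughout on the same ratio. The ratios of Calr, Herpud1, Atf4, Ddit3, Dnajb9 and Sdf2l1 to Hspa5 overlapped between the groups. Ddit3 per Atf4, which sets CHOP against its upstream factor, was 0.0929 ± 0.00911 in WT and 0.102 ± 0.0156 in TSK. Pdia4 made up 5.12% ± 0.339 of the summed CPM of the 7 folding and degradation genes in WT and 6.74% ± 0.186 in TSK, and Hspa5 26.0% ± 0.539 and 24.6% ± 0.154.

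To compare levels between genes, CPM were divided by the exonic length of each gene in kilobases. Calr was the most abundant member in WT at 58.7 ± 5.59 CPM per kb (SD, n = 3). Hsp90b1 (40.8 ± 3.84) and Hspa5 (38.3 ± 2.79) followed and overlapped with each other. Herpud1 (31.3 ± 1.41) and Atf4 (28.3 ± 1.76) also overlapped, as did Xbp1 (15.1 ± 1.11) and Pdia4 (13.3 ± 1.72). Dnajb9 was at 7.71 ± 0.346 CPM per kb and separate from its neighbours. Ddit3 (3.60 ± 0.131) and Sdf2l1 (3.07 ± 0.657) were lowest and overlapped. In TSK the first 5 places were held by the same genes in the same order, led by Calr at 72.3 ± 6.53 CPM per kb. Pdia4 (21.7 ± 1.05) and Xbp1 (21.1 ± 1.39) changed places, as did Sdf2l1 (4.74 ± 1.88) and Ddit3 (4.55 ± 0.402), and both pairs overlapped.

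The profiles of the members over the 6 libraries were compared by the root mean square difference of their log2 levels after TMM scaling and centring, where 0 is an identical profile. Hspa5, Calr and Hsp90b1 lay close to each other, with differences of 0.070 between Hspa5 and Calr, 0.069 between Hsp90b1 and Calr and 0.092 between Hspa5 and Hsp90b1. Hsp90b1 was as close to Xbp1 (0.074), Calr to Ddit3 (0.086) and Herpud1 to Atf4 (0.077). Dnajb9 and Sdf2l1 were the farthest apart of all pairs, at 0.613. Of 6413 other genes with a mean of at least 20 CPM, those near to Hspa5 included Cd2bp2 (0.033), Surf4 (0.039), Bfar (0.040) and Cisd2 (0.040). Those nearest to Atf4 were Rbx1, Ube2f, Csgalnact2, Pomgnt1 and Mrpl9, at 0.045 to 0.056. Those nearest to Herpud1 were Usp24, Map2k2, Rnf10, Afg3l2 and Slc49a4, at 0.027 to 0.032. None of these neighbours is one of the 10 genes.

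To show what sequence the members share near their starts, the 250 bases before the RefSeq start of each gene (GRCm38.p6) were searched on both strands for known stress elements, and the matches are shown to let the reader see the shared letters. The ER stress element, bound by ATF6 with NF-Y, was written as CCAAT and CCACG with any 9 bases between them. It was found before Hspa5, Hsp90b1 and Calr and in 0.113% of 32851 promoters. ER stress element II, written as ATTGG and CCACG with any 1 base between them, was found before Herpud1 and in 0.0304% of promoters. Its letters contain the reversed CCAAT box. The C/EBP-ATF response element, the site of ATF4 dimers, was written as TGATGNAA and was also found before Herpud1, and in 3.45% of promoters. The XBP1-type element TGACGTGG was found before none of the 10 genes and in 0.563% of promoters. All 10 genes had a RefSeq promoter. Each window is given 5′ to 3′ on the strand of the gene, with the matched letters in capitals. The Calr window, the second Hsp90b1 window and the C/EBP-ATF window of Herpud1 hold the element on the opposite strand, so the capitals there are its reverse complement. The element of Hspa5, without its flanking bases, lies 65 to 47 bases before the RefSeq start. Its window is inside a longer transcript of the GENCODE annotation.
Hspa5 (chr2:34772020-34772048, plus strand): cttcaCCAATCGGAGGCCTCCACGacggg
Hsp90b1, first match (chr10:86705633-86705661, minus strand): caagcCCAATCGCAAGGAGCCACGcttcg
Hsp90b1, second match (chr10:86705528-86705556, minus strand): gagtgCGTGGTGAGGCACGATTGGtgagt
Calr (chr8:84847070-84847098, minus strand): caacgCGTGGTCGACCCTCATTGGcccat
Herpud1, element II (chr8:94386368-94386396, plus strand): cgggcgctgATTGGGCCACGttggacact
Herpud1, C/EBP-ATF element (chr8:94386306-94386335, plus strand): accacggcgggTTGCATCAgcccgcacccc
A match of letters is a description of the sequence, not a binding site. The other 6 genes held none of the 4 elements in these letters in this window.

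Further genes of the secretory pathway were read from 8 lists covering lumenal chaperones, oxidative folding, degradation, stress sensors, ATF4 and CHOP targets, translocation, transport to the Golgi and procollagen folding. Of 162 genes tested in these lists, 4 rose in TSK and 0 fell (edgeR adjusted p below 0.05), or 2.47% of them beside 3.39% of all genes in either direction. With library size only, 29 were higher and 0 lower, which is 17.9% beside 8.44% of all genes called higher. DESeq2 called 13 higher and 5 lower, or 8.02% and 3.09%, beside 5.5% and 1.98% of all genes. The share of the lists that was called was thus below that of all genes with the first fit and above it with the other 2. Their median log2 fold change was 0.088 with TMM. Of 18 tested lumenal chaperones and cofactors edgeR called 0, with a median of 0.10, and DESeq2 called 1 lower (Creld1, log2 fold change -0.54, DESeq2 adjusted p = 0.0170). The most abundant of these were Canx, the membrane-bound relative of calreticulin (log2 fold change 0.12, SE 0.12), and Uggt1, the sensor of glycoprotein folding (-0.28, SE 0.12). With edgeR 0 were called of 21 degradation genes (median 0.037), 23 translocation and glycosylation genes (0.0097) and 23 transport genes (0.048). DESeq2 called 2 degradation genes higher (Edem1 and Edem2), 1 translocation gene lower (Srpr), and 1 transport gene higher (Sec24d) and 1 lower (Sar1b). Among abundant genes of these 3 lists, the log2 fold change was -0.30 for Vcp (degradation), -0.58 for Srpr and -0.16 for Ssr3 (translocation), and -0.028 for Mia3 and 0.078 for Tmed10 (transport). Creld1, Edem2, Sec24d and Sar1b are named with their values known. The medians were 0.24 over 18 oxidative folding enzymes, of which 13 were positive, and 0.20 over 11 stress sensors and transducers, of which 7 were positive. In a list of 17 cytosolic and mitochondrial heat shock genes edgeR and DESeq2 called 0, and 3 had a positive log2 fold change, with a median of -0.20 (Hsp90ab1 -0.35, Hspa8 -0.27). With library size only the sign of this median turned, to 0.090, beside 0.25 for all genes, and the medians of the 8 secretory lists were 0.28 to 0.69.

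The 4 genes that rose were one in each of 4 lists. Txndc5, a disulfide isomerase known from collagen-producing fibroblasts, was at 34.2, 32.9 and 40.1 CPM in WT and 63.5, 71.3 and 77.2 CPM in TSK (log2 fold change 0.70, SE 0.14, edgeR adjusted p = 0.0357). Mbtps1, the site-1 protease that cleaves ATF6 and other membrane-bound factors in the Golgi, was at 65.4, 47.9 and 51.1 CPM in WT and 88.5, 93.2 and 100.1 CPM in TSK (0.51, SE 0.11, adjusted p = 0.0497). Nupr1, a small chromatin protein induced by several stresses, was at 11.5, 8.33 and 8.15 CPM in WT and 16.6, 17.8 and 24.6 CPM in TSK (0.81, SE 0.17, adjusted p = 0.0419). Crtap, part of the complex that hydroxylates prolines of procollagen, was at 10.6, 10.01 and 10.9 CPM in WT and 22.4, 24.9 and 26.6 CPM in TSK (0.94, SE 0.13, adjusted p = 0.0123). In all 4 every TSK library was above every WT library, with and without TMM scaling, beside 14.1% and 29.1% of all genes. The 4 were named because they were called, so this separation adds no support. The 4 calls held without WT 1. Without WT 2, WT 3, TSK 1, TSK 2 or TSK 3 in turn, the adjusted p was 0.0647 to 0.0953 for Txndc5, 0.105 to 0.211 for Mbtps1 and 0.0562 to 0.176 for Nupr1. Of the 6 fits that left out a library, Crtap missed the threshold in 1, without WT 3 (adjusted p = 0.0566). Mbtps1 and Nupr1 also missed it with upper quartile scaling and with limma-voom, as given in the last section.

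The sensors themselves were also read, with their values known when they were chosen. Ern1, which encodes IRE1, had a log2 fold change of -0.061 (SE 0.12), Atf6 one of -0.083 (SE 0.13) and Eif2ak3, which encodes PERK, one of 0.55 (SE 0.14, edgeR adjusted p = 0.0791, DESeq2 adjusted p = 0.0354). Eif2ak3 was at 14.8, 11.4 and 13.2 CPM in WT and 19.7, 22.1 and 28.2 CPM in TSK. Of 31 tested ATF4 and CHOP targets, edgeR called 1 higher and 0 lower, beside 2.71% and 0.681% of all genes. The median was 0.011, and 17 had a positive log2 fold change. DESeq2 called 2 higher and 1 lower, beside 5.5% and 1.98%. The 2 higher were Nupr1, given above, and Atf5. Atf5 was at 45.8, 30.6 and 30.1 CPM in WT and 52.9, 67.2 and 69.8 CPM in TSK (0.57, SE 0.15, edgeR adjusted p = 0.0756, DESeq2 adjusted p = 0.0197). Chac1, a glutathione-degrading enzyme that CHOP and ATF4 induce, was at 22.3, 20.3 and 9.57 CPM in WT and 12.1, 10.2 and 10.8 CPM in TSK (-0.92, SE 0.28, edgeR adjusted p = 0.111, DESeq2 adjusted p = 0.0360), with WT 3 beside the TSK libraries. Edem1, a lectin of the degradation pathway, had a log2 fold change of 0.56 (SE 0.14, adjusted p = 0.0712, DESeq2 adjusted p = 0.0214). Among 17 procollagen folding factors the median was 0.41, the highest of the 8 lists, with 1 called higher by edgeR, beside 2.71% of all genes, and 5 called higher and 1 lower by DESeq2, beside 5.5% and 1.98%. Serpinh1, which encodes the collagen chaperone HSP47, was at 104, 109 and 129 CPM in WT and 181, 219 and 269.9 CPM in TSK (0.67, SE 0.19, edgeR adjusted p = 0.0906, DESeq2 adjusted p = 0.0111). The fibroblast markers moved in the same direction as these procollagen factors, as given above, and their part in the difference was not tested.

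**Figure D3:**
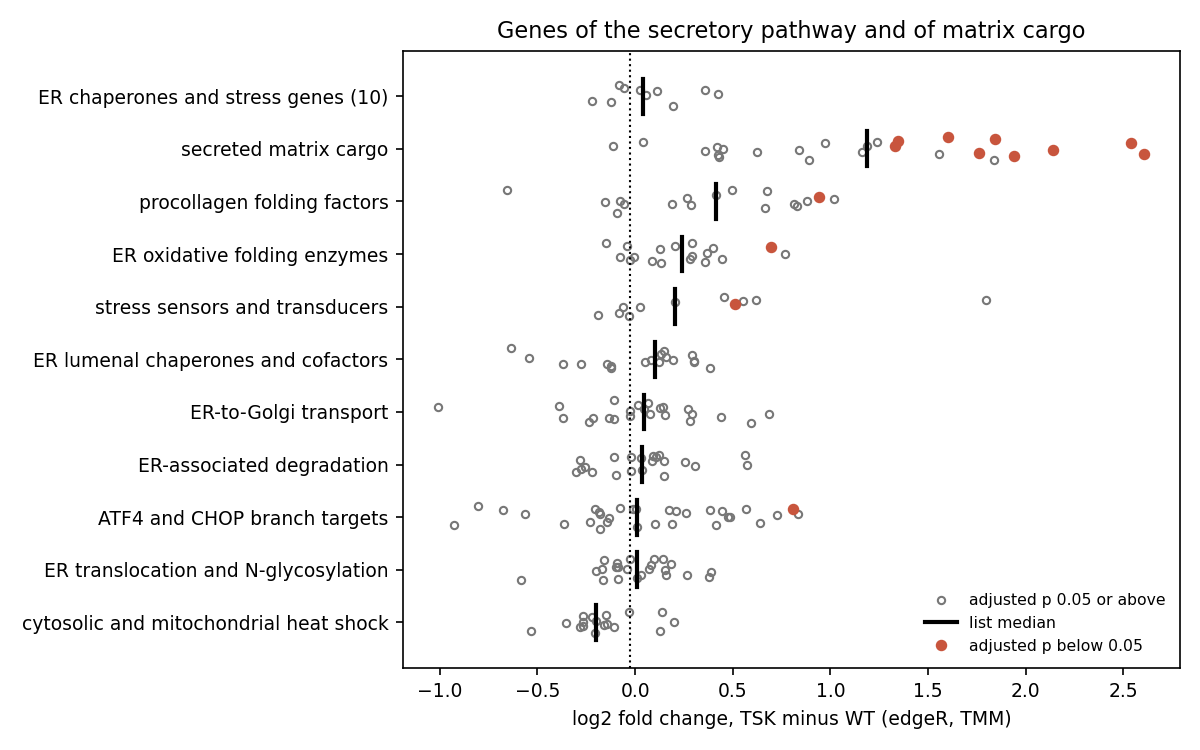
Log2 fold change (TSK minus WT, edgeR, TMM scaling) of each tested gene by list. Filled red points passed an adjusted p of 0.05, open points did not, black bars are list medians and the dotted line is the median of all genes (-0.03). Matrix cargo is centred at 1.19 and procollagen folding factors at 0.41, whereas the 10 ER genes lie around 0.04.

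The secretory load was read from 25 genes of secreted matrix, including Fbn1, fibrillar collagens and Fn1. The list was written with earlier results of these data known. The shares called and the ratio below therefore describe chosen genes and are no independent support. Of these, 9 rose and 0 fell with edgeR, beside 2.71% and 0.681% of all genes. DESeq2 called 17 higher and library size only 18, with 0 lower in both, and the median log2 fold change was 1.19. The highest were Mfap5 (2.61, SE 0.23, edgeR adjusted p = 0.00327), Fbn1 (2.54, SE 0.22, adjusted p = 0.00327), Col14a1 (2.14, SE 0.30, adjusted p = 0.0123) and Mfap2 (1.94, SE 0.25, adjusted p = 0.0107). Without WT 3 the adjusted p was 0.0605 for Col14a1 and 0.0561 for Mfap2. The summed level of the 25 genes was 9239, 12118 and 13665 CPM in WT and 28331, 29697 and 59635 CPM in TSK, a ratio of means of 3.36. The summed level of the 7 folding and degradation genes was 640, 573 and 658 CPM in WT and 708, 798 and 815 CPM in TSK, a ratio of 1.24. The ratio of these summed CPM, which are not corrected for gene length, was 0.0692, 0.0473 and 0.0481 in WT and 0.0250, 0.0269 and 0.0137 in TSK. It was lower in every TSK library than in any WT library, and the TSK mean was 0.398 of the WT mean. Without Fbn1 in the cargo it was 0.413 of the WT mean. No test was made of a sum over chosen genes. The folding genes are expressed in every cell of the skin and in muscle, while the cargo comes mainly from fibroblasts, so the ratio cannot be read per cell. The cargo shares 5 genes with the fibroblast markers, and the part of cell makeup in the ratio was not tested. Plasma cells, which secrete heavily, were read from 12 plasma and B cell markers, of which 7, among them Jchain and Mzb1, were below 1 CPM in the mean. The summed level of the 12 was 117 to 192 CPM in WT and 210.3 to 291 CPM in TSK, with Sdc1, which other skin cells also express, the most abundant. Of 5 tested, 1 was called higher by edgeR, beside 2.71% of all genes, and the median log2 fold change was 0.54.

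**Figure D4:**
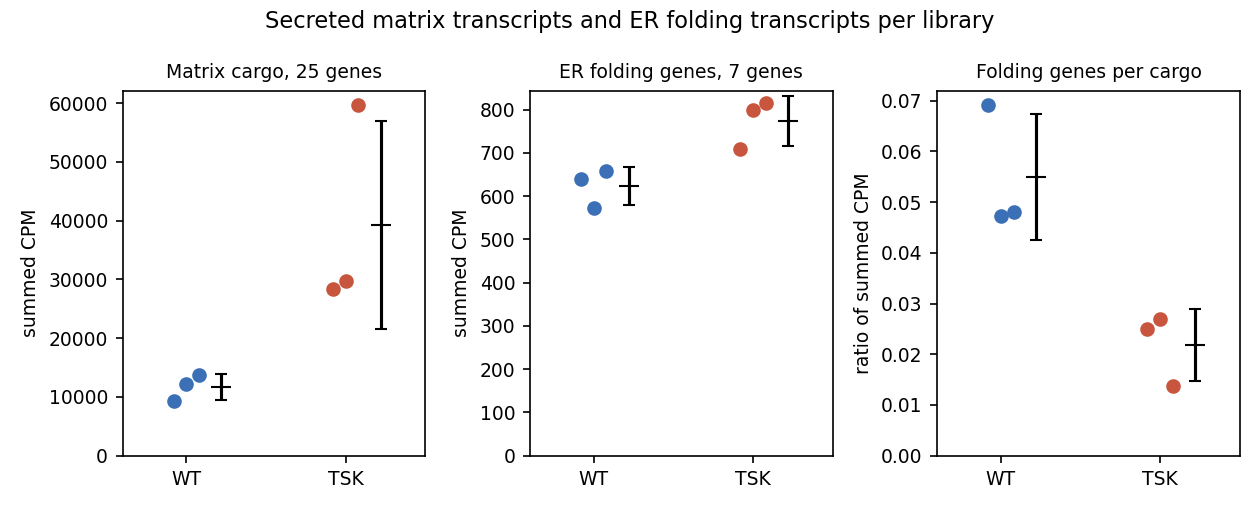
Summed CPM of 25 matrix cargo genes (left), summed CPM of the 7 ER folding and degradation genes (middle) and their ratio (right) in each library. Points are libraries, and the bar beside them is the mean with the SD (n = 3). Cargo was 3.36 times as high in TSK in the mean, the folding genes 1.24 times, and the ratio was 0.0549 ± 0.0124 in WT and 0.0219 ± 0.00715 in TSK.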

How the data were processed

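Estimated counts per gene and CPM were used as deposited by the authors. They sequenced stranded, rRNA-depleted single-end libraries of 50 bases, aligned the reads with STAR (version not given in the sources used here) to mm10, with gene quantification against Ensembl models in Partek Flow 11.0. The deposited table of estimated counts is named as raw, but 43.3% to 45.4% of non-zero values per library were whole (within 0.001), so values were rounded before edgeR 4.0.16 (R 4.3.3). The tests had been planned for whole counts. Genes were kept by filterByExpr, scaled by TMM, tested by the quasi-likelihood method and adjusted over all genes (Benjamini-Hochberg). DESeq2 1.42.0 and limma 3.58.1 were alternatives. The deposited CPM are scaled to each library total, so a gene's CPM falls when another takes more reads.

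The members and gene lists were chosen with earlier results of these data known. Named genes were the 10 members, Fbn1, the 5 genes nearest in profile to Hspa5, Atf4 and Herpud1, and chosen genes of each list. Per list these were up to 4 called genes of largest fold with a mean of at least 5 CPM, or else the 2 most abundant. Further genes were added with values known (Ern1, Atf6, Eif2ak3, Serpinh1, Chac1, Edem1, Creld1, Edem2, Sec24d, Sar1b, Atf5). Some genes that this rule names are not reported here. One marker, Krt85, was not analysed here. Lists of 10 cell types were read as summed CPM. Gene starts in the deposited table matched GENCODE M21 for all 10 members. Shared stretches of at least 50 bases at 95% identity were found with BLAST 2.17.0. Fits were tested on simulated data. Groups came from the labels, and p-values measure the spread between 3 mice per group. The 6 pairs of libraries within the groups differed by more than sampling noise (lowest chi-square per degree of freedom 8.85). Whether counting used strand is not given in the sources used here.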

Additional observations from a re-analysis of the deposited data

How the results depend on the processing

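The finding that no member was called held in all 6 fits that left out 1 library (0 to 0 higher, 0 to 0 lower). It also held with both other scalings by the bulk of genes, other low-count filters and limma-voom. The stricter threshold was put on the same fit, so it could call no further member. The count changed to 1 gene, Pdia4, with library size only, with muscle and rRNA genes removed, with DESeq2 and with limma-trend on CPM + 1 and CPM + 0.1. Over all genes, 542 were higher and 136 lower. Library size only gave 1685 higher, removal of muscle and rRNA genes 905, limma-trend 1771 and 1761. Without a low-count filter the counts were 1040 and 347, with DESeq2 1135 and 409, and 51 and 7 at the study's thresholds. Leaving out 1 library gave 45 higher (without WT 3) to 713 (without WT 1) and 15 lower (without WT 3) to 547 (without WT 1), with 226 and 61 without WT 2. Without WT 1 the median of the members was 0.018, and the same over all genes.

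Scalings that use library totals raised the median of all genes, and values near 0 changed sign. With library size only, Hspa5 was 0.23, Dnajb9 0.065, Herpud1 0.17, Atf4 0.20, Uggt1 0.00087, Ssr3 0.12, Mia3 0.27, Hspa8 0.027, Ern1 0.21 and Atf6 0.20. With limma-trend on CPM + 1 these were 0.23, 0.030, 0.16, 0.20, 0.0014, 0.12, 0.26, 0.029, 0.21 and 0.20, and on CPM + 0.1 they were 0.23, 0.029, 0.17, 0.20, 0.0014, 0.12, 0.27, 0.029, 0.22 and 0.20. With muscle and rRNA genes removed, Hspa5 was 0.063, Atf4 0.037, Mia3 0.095, Ern1 0.049 and Atf6 0.036. Calr was -0.014 with upper quartile scaling. Leaving out 1 library gave -0.11 to 0.028 for Hspa5, -0.012 to 0.071 for Calr, -0.14 to 0.077 for Mia3 and -0.15 to 0.0059 for Atf6. Herpud1 (-0.21 to -0.021) and Atf4 (-0.18 to -0.0042) kept their sign in these fits. None of these values passed 0.05. Of 180 member values under the alternatives, 158 kept direction and call, 5 gained the call and 17 changed sign.

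Whether mice with the same replicate number were paired cannot be told from these data. Libraries with the same number correlated at 0.0112, 0.167 and -0.0938, and those with different numbers at -0.194 to 0.180. Under the replicate block no member was called (665 genes higher, 129 lower), and Mbtps1 (adjusted p = 0.0862) and Nupr1 (0.0632) were not. Mbtps1 and Nupr1 also missed 0.05 with upper quartile scaling and limma-voom, and Mbtps1 without a low-count filter. Of 180 list medians, 39 moved by more than the spread between libraries. For these changes the cause was not tested. Depth was similar in all libraries and does not separate the groups, and Sdf2l1 and Ddit3 are the members with the fewest counts.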
